A study of Mus musculus with 16 samples.

Results

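The genes described here are 10 genes of antigen presentation by the major histocompatibility complex (MHC), chosen by name from the 57010 genes measured in mouse liver. H2-Aa, H2-Ab1, H2-Eb1, Cd74 and Ciita, 5 in number, belong to the class II route, and the other 5, H2-K1, H2-D1, B2m, Tap1 and Nlrc5, to the class I route. The rule that lists them uses no measured value, although earlier results of these data were known when it was written. All 10 were in the table, and 9 passed the filter on low values that the test across genes required, while Ciita did not.

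Class I molecules are found on nearly all nucleated cells. A heavy chain such as the products of H2-K1 and H2-D1 pairs with the small subunit encoded by B2m and displays peptides made in the cytosol, which the transporter subunit encoded by Tap1 helps to bring into the endoplasmic reticulum. Class II molecules are found mainly on dendritic cells, macrophages and B cells: an alpha chain (H2-Aa) pairs with a beta chain (H2-Ab1) to form I-A, and the invariant chain (Cd74) guides it to the compartment where peptides are loaded. H2-Eb1 encodes the beta chain of the second class II molecule, I-E, whose alpha chain gene is not transcribed in C57BL/6 mice. Ciita and Nlrc5 encode related coactivators that bind no DNA themselves and act on class II and class I promoters, respectively.

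The study asked whether selenium (Se) protects mice from cadmium (Cd), and poly(A) RNA from whole liver was sequenced in 16 male wild-type C57BL/6J mice, 4 in each group. The methods give their age as 8 to 12 weeks without saying whether this was before the diet or at collection. Control mice received neither compound. Cd mice were given CdCl2 by intraperitoneal injection at 1.25 mg/kg per day for the last 7 days, Se mice were fed selenomethionine (SeMet) at 2 ppm for 3 months, and Cd+Se mice received both. Whether the groups without Cd received a vehicle injection is not given in the sources used here. Levels were deposited as TPM, a unit of transcript abundance scaled to transcript length and to the same total in each library, so that levels of different genes may be compared but the sequencing depth is unknown. Mt1, a metallothionein gene that responds to Cd, had 3178 to 6070 TPM in the 8 mice given Cd and 50.9 to 431 TPM in the 8 mice without it, as the labels of the groups with Cd imply. The p-values weigh differences between groups against the spread between mice. The linear model (limma) pools this spread over the 4 groups, while exact permutation uses only the mice of the groups compared. In whole liver, fewer cells of a type and less RNA per cell cannot be told apart.

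Promoters of MHC genes are known for a shared arrangement of an X box and a Y box, to which the RFX complex, CREB family proteins and NF-Y bind and on which Ciita and Nlrc5 act. Windows of 300 bases around RefSeq start sites (GRCm38.p6) were held for 6 of the 10 members: H2-Aa, H2-Eb1, H2-K1, H2-D1, B2m and Tap1. They were searched, in the 250 bases before the start, for TGACG, the core of the X2 element of the X box, and for ATTGG, the core of the Y box. The stretches that hold these letters are shown for 5 of the members because they let class II and class I promoters be compared. Each is written on the strand of the gene, with TGACG and ATTGG in capitals and the rest in lower case.
H2-Aa: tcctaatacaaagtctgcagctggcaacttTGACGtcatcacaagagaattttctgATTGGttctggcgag
H2-Eb1: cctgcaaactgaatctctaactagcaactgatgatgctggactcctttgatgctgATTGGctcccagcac
H2-K1: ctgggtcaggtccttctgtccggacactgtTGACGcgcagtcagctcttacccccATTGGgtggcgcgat
H2-D1: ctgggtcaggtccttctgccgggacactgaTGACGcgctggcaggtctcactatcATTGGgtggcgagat
B2m: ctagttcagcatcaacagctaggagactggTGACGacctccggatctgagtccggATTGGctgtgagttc

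The stretch of H2-Aa lies at chr17:34287857-34287927 on the minus strand, that of H2-Eb1 at chr17:34305753-34305822 on the plus strand and that of H2-K1 at chr17:34000349-34000418 on the minus strand. The stretch of H2-D1 lies at chr17:35262963-35263032 and that of B2m at chr2:122147579-122147648, both on the plus strand. That of H2-D1 is before the RefSeq start but within the span of the gene in GENCODE M21, given below. In 4 members the 2 motifs followed each other on the strand of the gene, with their first bases 26 bases apart in H2-Aa and 25 bases apart in H2-K1, H2-D1 and B2m. Across all 32851 windows, 17.8% held TGACG on either strand, 33.8% held ATTGG on either strand, and 0.216% held both on 1 strand with first bases 24 to 27 bases apart, a spacing chosen after the members' sequences had been read. H2-Eb1 had ATTGG with no TGACG, and the window of Tap1 had TGACG without that spacing to ATTGG. Among the other genes of antigen presentation listed, 2 of the 44 with a window had the pair, H2-M3 and H2-Q7. The stretches of H2-K1 and H2-D1 had the same base at 59 of 70 positions (84.3%). A match of these letters is a description of the sequence and not evidence of binding.

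In the annotation of GENCODE M21 (GRCm38), 6 of the members lie within the MHC on chromosome 17. H2-K1 (ENSMUSG00000061232) is at 33996017 to 34000347, Tap1 (ENSMUSG00000037321) at 34187553 to 34197225, H2-Ab1 (ENSMUSG00000073421) at 34257689 to 34269419, H2-Aa (ENSMUSG00000036594) at 34282744 to 34287823, H2-Eb1 (ENSMUSG00000060586) at 34305867 to 34316674 and H2-D1 (ENSMUSG00000073411) at 35262730 to 35267499. B2m (ENSMUSG00000060802) is on chromosome 2 at 122147686 to 122153083, Nlrc5 (ENSMUSG00000074151) on chromosome 8 at 94434356 to 94527272, Ciita (ENSMUSG00000022504) on chromosome 16 at 10480059 to 10528418 and Cd74 (ENSMUSG00000024610) on chromosome 18.

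The class I genes B2m, H2-K1 and H2-D1 had higher control means than every class II gene, while Nlrc5 and Tap1 had lower ones than all class II genes except Ciita. In control mice B2m, at 1924 ± 186 TPM (SD, n = 4), and H2-K1, at 1164 ± 81.8 TPM, ranked 61st and 86th of the 57010 genes by mean level. H2-D1 was at 236.5 ± 15.8 TPM, Nlrc5 at 10.1 ± 1.46 TPM and Tap1 at 6.12 ± 0.643 TPM. Among class II genes Cd74 was highest in control mice at 41.9 ± 6.16 TPM, followed by H2-Aa at 25.5 ± 4.56, H2-Ab1 at 17.1 ± 3.04 and H2-Eb1 at 15.9 ± 3.70 TPM. The ranges of H2-Ab1 and H2-Eb1 overlapped. Ciita had 0.240 ± 0.0906 TPM. H2-K1, H2-D1 and the other class I heavy chain genes are near-identical in long stretches, and how the authors' quantification divided shared reads among them is not stated, so the level of each is uncertain to that extent.

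The class II genes had their highest means in Cd+Se mice and their lowest in Se mice, and on the normal diet 0 of them passed the test for a change with Cd. H2-Aa was at 25.8, 26.5, 19.3 and 30.3 TPM in control (mice 27 to 30), 30.7, 28.9, 25.9 and 26.2 TPM in Cd (mice 1, 2, 5 and 6), 50.9, 43.4, 21.9 and 43.6 TPM in Cd+Se (mice 13 to 16) and 26.7, 12.9, 17.4 and 14.3 TPM in Se mice (mice 39, 40, 41 and 44). Cd+Se mice 13, 14 and 16 exceeded the mice of every other group, while Cd+Se mouse 15 lay within the control range. H2-Ab1, its partner, was at 18.2, 18.2, 12.6 and 19.4 TPM in control, 20.8, 19.6, 14.8 and 18.3 TPM in Cd, 30.5, 24.2, 15.9 and 24.1 TPM in Cd+Se and 15.4, 7.93, 11.3 and 8.08 TPM in Se mice, in the same order of mice. Cd+Se and Se mice did not overlap in H2-Ab1, and mouse 15 was again the lowest of the Cd+Se mice.

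H2-Eb1 was at 19.9, 13.4, 12.3 and 18.3 TPM in control, 28.8, 21.1, 19.4 and 22.1 TPM in Cd, 38.6, 29.7, 18.2 and 33.5 TPM in Cd+Se and 16.2, 9.20, 10.2 and 8.59 TPM in Se mice. It was the class II gene with the largest ratio between Cd and control means, 1.43, although mouse 5 of the Cd group was below mouse 27 of the control group. Cd74 was at 42.4, 46.5, 33.0 and 45.6 TPM in control, 42.1, 40.4, 35.1 and 35.6 TPM in Cd, 65.1, 59.7, 33.4 and 57.4 TPM in Cd+Se and 34.6, 29.01, 29.5 and 19.6 TPM in Se mice. Its Cd and control ranges overlapped, and mouse 15 had less Cd74 than every Cd mouse. Ciita was at 0.26, 0.27, 0.11 and 0.32 TPM in control, 0.17, 0.30, 0.22 and 0.19 TPM in Cd, 0.53, 0.38, 0.15 and 0.57 TPM in Cd+Se and 0.12, 0.13, 0.08 and 0.14 TPM in Se mice. The number of reads behind such low levels is unknown. The groups at both ends of the order were those of the other class II genes, with Cd+Se highest and Se lowest.

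**Figure D1:**
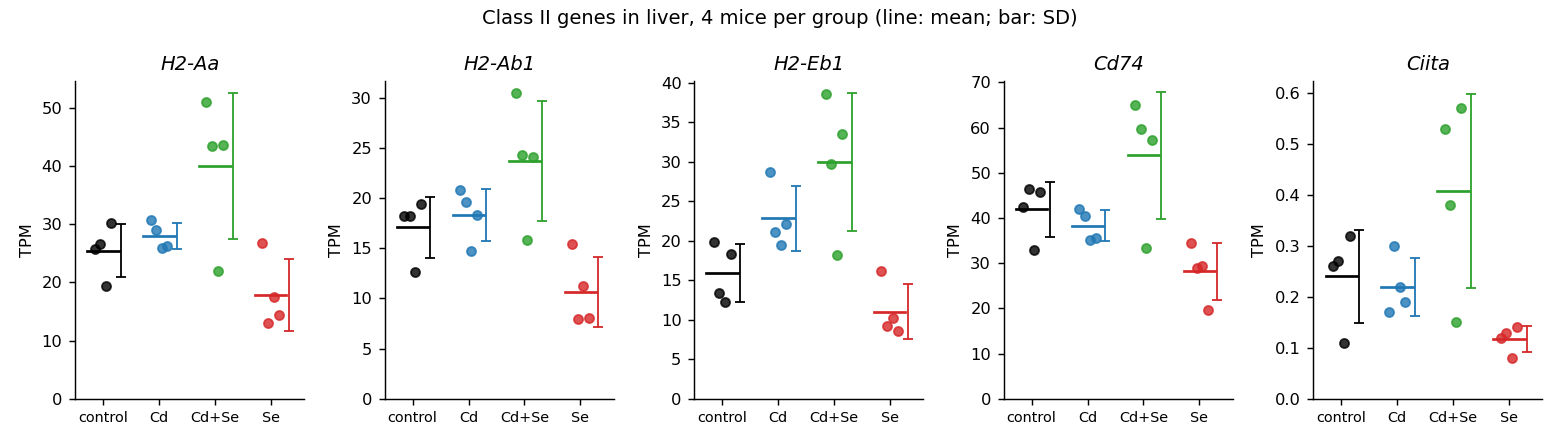
TPM of the 5 class II genes in each mouse (y axes, linear, from 0) by group (x axes), with 4 points per group, a line at the mean and a bar of 1 SD beside it. Cd+Se mice are highest except for 1 low point in each panel, which is mouse 15, and the mean of the Se mice is lowest in every panel.

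The effect of Cd injection in mice fed SeMet was read from Cd+Se against Se. Here 4 of the 9 members tested passed the threshold, all class II and all higher in Cd+Se, whereas 0.714% of the 11766 genes tested passed in either direction and 0.544% passed as higher. H2-Eb1 rose by 1.35 on the log2(TPM + 1) scale (standard error 0.230, limma adjusted p = 0.0106), or 2.71-fold between the means. H2-Ab1 rose by 1.09 (standard error 0.213, limma adjusted p = 0.0258), a ratio of 2.22. H2-Aa rose by 1.11 (standard error 0.239, limma adjusted p = 0.0442) and Cd74 by 0.90 (standard error 0.197, limma adjusted p = 0.0496), and in both of these genes Cd+Se mouse 15 was below Se mouse 39. Ciita was 3.47 times higher on average and did not overlap between the groups (p = 0.0286 by exact permutation, two-sided, the smallest that 4 mice against 4 allow), with a p over 0.05 in 6 of 11 other settings. The median change of the 4 class II genes was 1.10, against -0.03 over all genes tested. None of the 5 class I genes passed, with changes from -0.10 for Tap1 to 0.27 for Nlrc5.

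The calls of H2-Aa and Cd74 were close to the threshold. Over 24 other settings of the analysis H2-Aa lost its call in 19 and Cd74 in 18, H2-Ab1 lost it in 8 and H2-Eb1 in 2, while the change of H2-Aa stayed between 0.97 and 1.37 and that of H2-Eb1 between 1.22 and 1.57. With only the Cd+Se and Se mice in the model, or with Se mouse 44 left out, 0 members passed. The count was 1 with Cd+Se mouse 13, 14 or 16 or Se mouse 40 or 41 left out, and 2 with control mouse 27, 28 or 30 or any Cd mouse left out.

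Neither diet nor Cd on its own gave a change of class II genes that passed. In Se against control, 0 of the 9 members and 0% of the genes tested passed with limma, although 454 genes had an unadjusted p under 0.05. The 4 class II genes in the model were among these 454, with lower means in Se mice: the log2 changes were -0.66 for H2-Ab1, -0.57 for Cd74, -0.52 for H2-Aa and -0.51 for H2-Eb1, each with a limma adjusted p of 1.0. In each of these 4 genes Se and control mice overlapped. Ciita was at 0.490 times the control mean in Se mice (exact permutation, two-sided, p = 0.114).

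In Cd against control, class II changes ranged from -0.12 for Cd74 (95% interval -0.54 to 0.30) to 0.50 for H2-Eb1 (0.02 to 0.99, limma adjusted p = 0.106). H2-Aa changed by 0.14 (-0.36 to 0.65) and H2-Ab1 by 0.10 (-0.35 to 0.55), less than the spread between mice. The change of Cd74 became 0.01 with quantile normalization and 0.10 when libraries were centred on their medians, so that its direction depended on the scaling, and that of H2-Eb1 passed after centring (0.72, limma adjusted p = 0.0329). Ciita had a ratio of 0.917 (exact permutation, two-sided, p = 0.743).

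What SeMet did in mice given Cd was read from Cd+Se against Cd, where the 4 class II genes had positive changes from 0.33 for H2-Ab1 to 0.44 for H2-Aa and Cd74, and 0 of them passed. Without Cd+Se mouse 15, H2-Aa at 0.70 (limma adjusted p = 0.0386) and Cd74 at 0.65 (limma adjusted p = 0.0277) passed. With limma 0 of the 9 members passed in Cd+Se against control, where 0.484% of all genes did, and 2 of them, H2-Eb1 at 0.85 and H2-Aa at 0.58, had an unadjusted limma p under 0.05. So had 1286 of all 11766 genes tested. H2-Eb1 passed there when mouse 15 was left out (1.06, limma adjusted p = 0.0285).

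Whether the change with Cd differed between the diets was tested as the interaction of Cd and Se. It was positive for all 4 class II genes, at 1.01 for Cd74 (limma adjusted p = 0.0794), 0.99 for H2-Ab1 (limma adjusted p = 0.0966), 0.96 for H2-Aa (limma adjusted p = 0.128) and 0.85 for H2-Eb1 (limma adjusted p = 0.156). With limma 0 of the 9 members passed, against 1.04% of the genes tested, while 5 members had an unadjusted p under 0.05: these 4 and B2m. Of all 11766 genes tested, 2505 had such a p. Without mouse 15, the interaction passed for H2-Aa and Cd74, each at 1.22.

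The class II genes varied together from mouse to mouse. Over the 16 libraries the Pearson correlation between pairs of H2-Aa, H2-Ab1, H2-Eb1 and Cd74 was 0.85 to 0.97, and with the group means removed it was 0.80 to 0.95. The highest value belonged to H2-Aa and H2-Ab1, the chains of I-A. Ciita followed the mean log2 level of these 4 genes with r = 0.83 (Spearman's rho 0.86), with r = 0.74 when Cd+Se mice 13 and 16, the farthest from the median, were left out and r = 0.66 with the group means removed. These are descriptions: all points share the groups and the composition of each liver sample. The tested genes outside the set whose levels followed the class II mean most closely were Gbp9, an interferon-inducible guanylate binding protein gene (r = 0.900), Il2rg, the shared gamma chain of several cytokine receptors (r = 0.896), and Igfbp3, a carrier of insulin-like growth factors (r = 0.892). Gbp9 had means of 1.42 TPM in control, 1.57 in Cd, 2.30 in Cd+Se and 1.01 in Se mice, and Il2rg had 1.88, 1.97, 3.55 and 1.24 TPM.

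On the normal diet, the levels of the class I genes H2-K1 and B2m were higher in Cd mice than in control mice. H2-K1 was at 1239, 1047, 1189.96 and 1178 TPM in control, 1529.9, 1740.4, 1481 and 1389 TPM in Cd, 1432, 1207, 1185 and 1272 TPM in Cd+Se and 1026, 1285, 1105 and 1181 TPM in Se mice. The lowest Cd mouse was above the highest mouse of the control and Se groups. With Cd, H2-K1 rose by 0.40 against control (standard error 0.108, limma adjusted p = 0.0118), a ratio of 1.32. B2m was at 2059.9, 1659, 2048 and 1929 TPM in control, 2491, 2688, 2439 and 2238 TPM in Cd, 1964, 1791, 1892 and 1913 TPM in Cd+Se and 1722, 2220.5, 1829.6 and 2165 TPM in Se mice. All 4 Cd mice were above the other 12 mice, with a change against control of 0.36 (standard error 0.111, limma adjusted p = 0.0226) and a ratio of 1.28.

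H2-K1 and B2m were the 2 of 9 members that passed in Cd against control, where 30.8% of all genes tested passed, 5.82% as higher and 24.9% as lower. A call in this comparison is therefore common, and a call as higher is less so. H2-K1 lost its call under 1 of 24 other settings, quantile normalization (0.18, limma adjusted p = 0.204), and B2m under 4, which were no filter on low values (limma adjusted p = 0.0589), quantile normalization (0.23, limma adjusted p = 0.0719), control mouse 28 left out (0.29, limma adjusted p = 0.0840) and Cd mouse 2 left out (0.32, limma adjusted p = 0.0624). Over all genes the median change was -0.17 in this comparison, -0.01 after quantile normalization and 0.05 after centring. The share of calls that were higher was 18.9%, 42.9% and 55.6% in these 3 scalings.

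B2m was the 1 member of 9 that passed in Cd+Se against Cd, and it fell by 0.38 (standard error 0.111, limma adjusted p = 0.0309), to a mean of 1890.3 TPM against 1924.1 TPM in control mice. Of all genes tested 15.9% passed in this comparison, 13.6% as higher and 2.35% as lower. The call was lost in 7 of 24 other settings, among them those without Cd mouse 2 or 5 or without Cd+Se mouse 14, 15 or 16, with limma adjusted p-values up to 0.085 and changes between -0.57 and -0.33. H2-K1 changed by -0.27 (95% interval -0.50 to -0.04, limma adjusted p = 0.0974), and passed with centring (-0.46) and with a correction for transcript length and GC content (-0.35). Against control, Cd+Se mice had changes of -0.02 for B2m and 0.13 for H2-K1, and Se mice had 0.04 and -0.02, none of which passed. The interaction was -0.42 for B2m (limma adjusted p = 0.146) and -0.25 for H2-K1 (limma adjusted p = 0.357).

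H2-D1, the second heavy chain gene, passed in none of the comparisons. It was at 254, 215, 239 and 238 TPM in control, 260.01, 266, 216 and 244 TPM in Cd, 284, 240.2, 259.6 and 233 TPM in Cd+Se and 195, 236, 222 and 215 TPM in Se mice. The 4 groups overlapped. Its change in Cd against control was 0.06 (95% interval -0.16 to 0.28, limma adjusted p = 0.701), and it passed after centring (0.28, limma adjusted p = 0.0219). The difference between the changes of H2-D1 and H2-K1 was not tested.

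Tap1 had its lowest mean in Cd mice. It was at 5.73, 5.65, 7.05 and 6.07 TPM in control, 4.56, 4.01, 3.04 and 6.79 TPM in Cd, 7.54, 6.98, 3.91 and 6.92 TPM in Cd+Se and 7.76, 5.45, 6.94 and 6.74 TPM in Se mice. Cd mice 1, 2 and 5 were below every control mouse, and Cd mouse 6 was not. The Cd against control change was -0.38 (95% interval -0.80 to 0.03, limma adjusted p = 0.145), and -0.56 without mouse 6 (limma adjusted p = 0.0356). Cd+Se against Cd gave 0.40 (limma adjusted p = 0.164), and 0.58 without Cd+Se mouse 15 (limma adjusted p = 0.0480).

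Nlrc5, the class I coactivator gene, was at 11.6, 8.75, 11.2 and 8.95 TPM in control, 16.9, 15.4, 14.9 and 8.35 TPM in Cd, 12.2, 11.2, 10.2 and 10.2 TPM in Cd+Se and 7.01, 10.5, 9.09 and 9.05 TPM in Se mice. Cd mice 1, 2 and 5 were above the mice of the other groups, while mouse 6 had the lowest level of its group and was below the control mice. The Cd against control change was 0.39 (95% interval 0.01 to 0.76, limma adjusted p = 0.107). It passed in 4 of 24 other settings: without mouse 6 (0.60, limma adjusted p = 0.00668), with quantile normalization (0.58), with centring (0.61) and with the correction for length and GC content (0.69). Nlrc5 has the longest transcript of the members, at 7578 bases, and B2m the shortest, at 860 bases. Across 11561 genes the rank correlation between transcript length and change in Cd against control was -0.28.

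**Figure D2:**
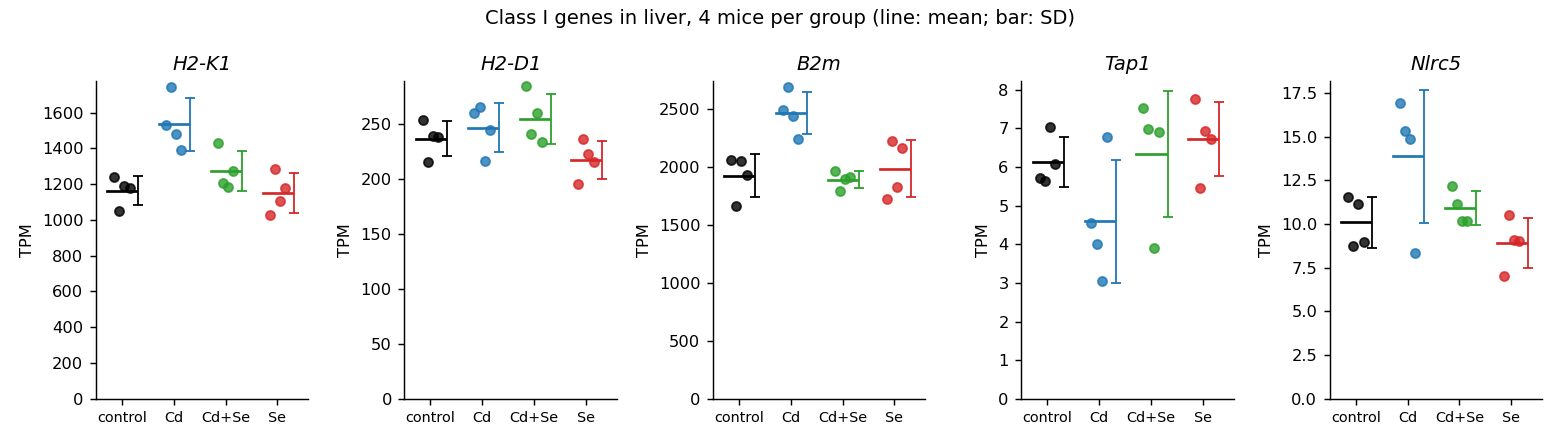
TPM of the 5 class I genes in each mouse (y axes, linear, from 0) by group (x axes), with 4 points per group, a line at the mean and a bar of 1 SD beside it. The mean of the Cd mice is highest in H2-K1 and B2m, and in Tap1 and Nlrc5 a single Cd mouse, mouse 6, lies apart from the other 3.

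The class I genes did not vary as one group. H2-K1 and B2m had a correlation of 0.88 over the 16 libraries, with and without the group means, and H2-K1 and H2-D1 had 0.63, or 0.74 with the group means removed. Tap1 had -0.59 with B2m, -0.53 with H2-K1 and -0.18 with H2-D1, and -0.29, -0.11 and 0.02 with the group means removed. The level of Nlrc5 followed the mean log2 level of H2-K1, H2-D1, B2m and Tap1 with r = 0.44 (Spearman's rho 0.47), and with r = 0.22 when Cd mice 1 and 2, the farthest from the median, were left out, and with r = 0.25 with the group means removed. The tested genes closest to this class I mean were H3c14, a histone H3 gene (r = 0.846), Gm48161, a long noncoding RNA gene (r = 0.834), and Slc38a6, an amino acid transporter family gene (r = 0.831).

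**Figure D3:**
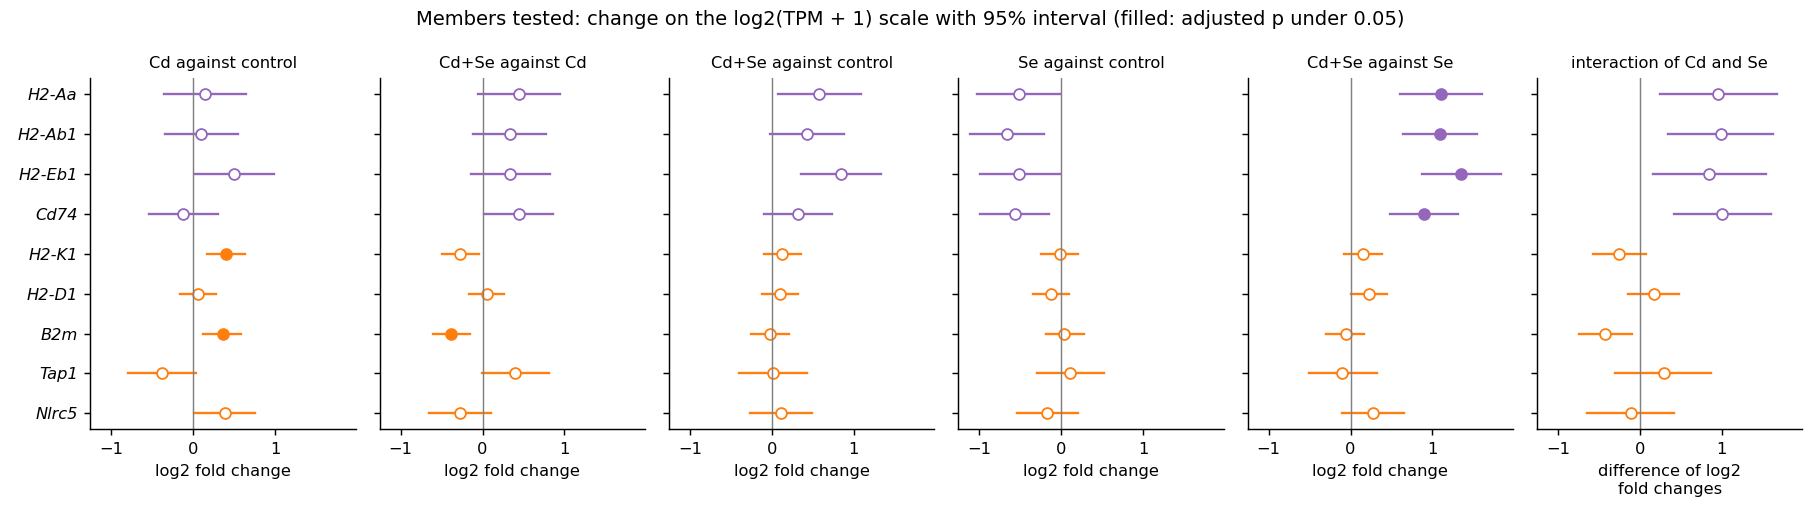
Log2 fold changes of the 9 members in the model (x axes, log2(TPM + 1) scale; the last panel is a difference of log2 fold changes) in the 6 comparisons, with 95% intervals; class II genes are purple, class I genes orange, and filled points have a limma adjusted p under 0.05. Filled points are H2-K1 and B2m in Cd against control, B2m in Cd+Se against Cd, and the 4 class II genes in Cd+Se against Se.

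A list of 49 other antigen presentation genes was followed to set the members in their pathway, and 42 of them were tested. In Cd against control 8 passed (19.0% of the 42, against the 30.8% of all genes given above), 3 higher and 5 lower, and the median change was -0.13 against -0.17 over all genes. For Cd+Se against Cd 5 passed (11.9%, against 15.9% of all genes), 4 higher and 1 lower. Of all genes 13.6% passed there as higher and 2.35% as lower. With limma 0 passed in Cd+Se against control, Se against control, Cd+Se against Se and the interaction, where 4, 2, 5 and 12 of the 42 had an unadjusted p under 0.05. Of all 11766 genes tested, 1286, 454, 1286 and 2505 had such a p in these comparisons. The count of the 42 that passed in Cd+Se against Cd was 0 with only these groups in the model.

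Of 11 genes for class II proteins and their loading, 6 were tested. With limma 0 of them passed in Cd against control (2 at an unadjusted p under 0.05, as were 4997 of all 11766 genes tested). In Cd+Se against Cd 1 did (16.7%, against 15.9% of all genes). It was Lgmn, which encodes legumain, a lysosomal protease that cuts the invariant chain and antigens. Lgmn was at 24.9, 23.2, 15.2 and 22.7 TPM in Cd mice, below each control mouse (26.5 to 31.7 TPM), and at 28.4 to 33.2 TPM in Cd+Se mice. It rose by 0.54 in Cd+Se against Cd (limma adjusted p = 0.0361), a call lost in 7 of 24 other settings, and its change against control was -0.42 (limma adjusted p = 0.0587). H2-DMb1 and H2-Ob, named here after their values were seen, encode chains of the molecules that exchange class II peptides or restrain that exchange. H2-DMb1 had means of 3.48 TPM in Cd+Se and 1.49 TPM in Se mice with no overlap (change 0.89, limma adjusted p = 0.0760). H2-Ob, below the filter, had 1.26 and 0.407 TPM with no overlap (p = 0.0286, exact permutation, two-sided). H2-DMa rose by 0.26 between these groups, also with no overlap (limma adjusted p = 0.536). The rest of this list, Ctss, Ctsl, Lgmn, Ifi30, H2-DMb2, H2-Oa, H2-Eb2 and Marchf1, overlapped between them. With limma 0 of the 6 tested passed there. Unlike the class II members, H2-Ob also had no overlap in Cd against control (1.29 and 0.525 TPM, ratio 2.46, exact permutation p = 0.0286), and its ratio in Cd+Se against Cd was 0.977 (exact permutation p = 0.8).

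Of the 21 genes for class I proteins and their loading, all were tested. In Cd against control 4 passed (19.0%, against 30.8% of all genes). Of these, 2 were higher, H2-Q10 and Calr, and 2 were lower, Erap1 and Canx. H2-Q10 encodes a class I protein that liver cells secrete. It was at 1077, 917, 958 and 1009.98 TPM in control and 1357, 1544, 1258 and 1178 TPM in Cd mice without overlap, a rise of 0.42 (limma adjusted p = 0.0105) that kept its call in 24 of 24 other settings. Calr, which encodes the chaperone calreticulin, rose by 0.48 (limma adjusted p = 0.0275, lost in 4 of 24 settings), from 277 ± 44.1 to 384.6 ± 32.9 TPM (SD, n = 4 each). Canx, which encodes its membrane-bound relative calnexin, fell by 0.53 (limma adjusted p = 0.0184), from 119.4 ± 13.6 to 83.8 ± 20.0 TPM.

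Erap1, whose product trims peptides in the endoplasmic reticulum, was at 25.4, 24.97, 22.6 and 21.1 TPM in control and 15.5, 15.9, 10.9 and 13.98 TPM in Cd mice. It fell by 0.71 in Cd against control (limma adjusted p = 0.000852) and was higher by 0.69 in Cd+Se against Cd (limma adjusted p = 0.00534). Erap1 and H2-Q10 were the 2 of 21 that passed in Cd+Se against Cd (9.52%, against 15.9% of all genes). There H2-Q10 fell by 0.35 (limma adjusted p = 0.0472), a call lost in 18 of 24 other settings. The changes of these genes were not tested against those of the members.

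Of 17 genes of the promoter complex and of interferon gamma signalling, 15 were tested. In Cd against control 4 passed (26.7%, against 30.8% of all genes). Of these, 1 was higher, Rfxap, and 3 were lower, Jak1 and Rfx5 among them. Jak1, a kinase of the interferon gamma receptor, fell by 0.75 (limma adjusted p = 0.00108) in Cd against control and rose by 0.70 in Cd+Se against Cd (limma adjusted p = 0.00686). Jak2, the partner kinase, rose by 0.47 in Cd+Se against Cd (limma adjusted p = 0.0467, lost in 17 of 23 settings). Jak1 and Jak2 were the 2 of 15 that passed there (13.3%, against 15.9% of all genes).

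Irf1, a transcription factor gene that interferon gamma induces, did not pass: its change in Cd against control was 0.25 (95% interval -0.11 to 0.61, limma adjusted p = 0.273). Rfx5 and Rfxap encode subunits of the RFX complex that binds the X box. Rfx5 fell by 0.39 in Cd against control (limma adjusted p = 0.0147), from 4.14 ± 0.313 to 2.93 ± 0.450 TPM, a call lost with quantile normalization, centring and the correction for length and GC content. Rfxap rose by 0.60 (limma adjusted p = 0.0456, lost in 11 of 24 settings).

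**Figure D4:**
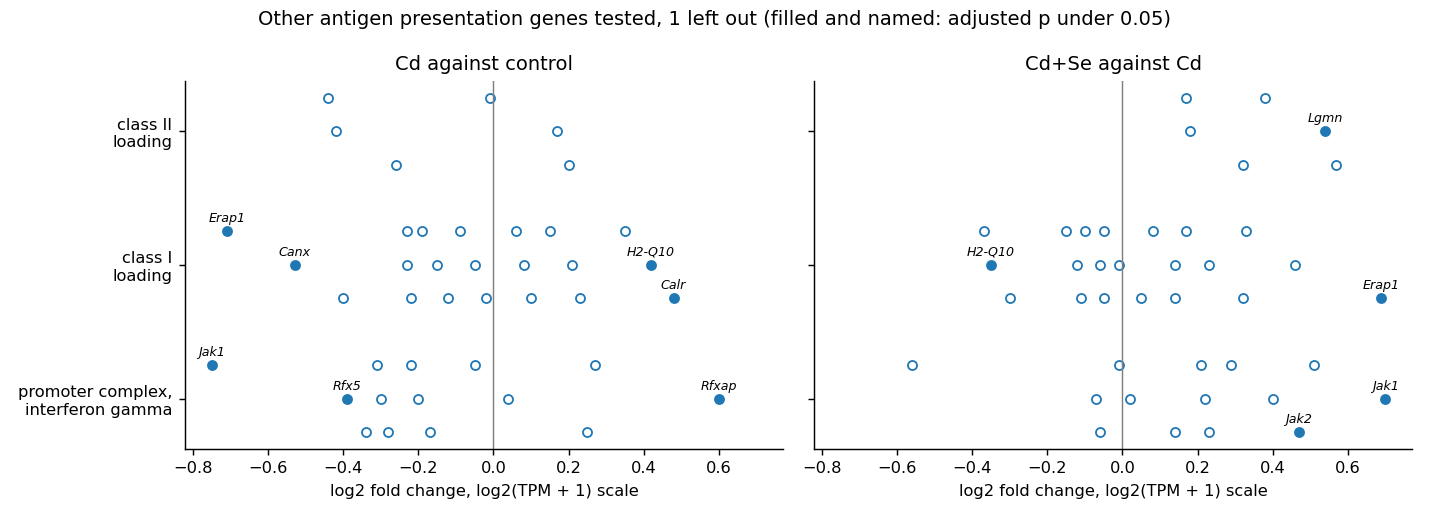
Log2 fold changes (x axes, log2(TPM + 1) scale) of the tested genes of the 3 pathway lists, with 1 gene left out (y axis; points of a list are spread in height only to separate them) in Cd against control and in Cd+Se against Cd; filled points are named and have a limma adjusted p under 0.05. In Cd against control 3 filled points lie to the right of 0 and 4 to the left, and in Cd+Se against Cd 4 lie to the right and 1 to the left.

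Class II genes are expressed by few of the cells of a liver, so 7 lists of cell type markers were read beside them. Kupffer cell markers, of the resident macrophages, were lower in Cd mice for 10 of 10 genes (median change -1.11), with a summed level of 75.4 to 110.4 TPM against 184.7 to 220.8 TPM in control mice, 73.5 to 139.0 TPM in Cd+Se and 123.0 to 242.5 TPM in Se mice. Timd4, the marker with the lowest ratio of Cd to control means, had 0.142 ± 0.0519 TPM in Cd and 3.28 ± 0.546 TPM in control mice (SD, n = 4 each). In Cd+Se against Se the changes of 10 of 10 were negative (median -0.40), and 3 of them passed. This direction was opposite to that of the class II genes, as it was in Cd+Se against control (median -0.65). In Cd+Se against Cd 9 of 10 were positive (median 0.30, against 0.17 over all genes), as were the class II changes. Both sets were negative in Se against control (Kupffer median -0.22) and mainly positive in the interaction (Kupffer median 0.49).

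By summed level, monocyte markers were highest in Cd+Se mice, at 70.1 to 122.5 TPM. The sums were 43.7 to 60.7 TPM in control, 38.8 to 58.3 TPM in Cd and 37.4 to 55.5 TPM in Se mice. Most of each sum was Lyz2, with means of 47.9 TPM in control, 46.2 in Cd, 83.9 in Cd+Se and 46.7 in Se mice. Of the 3 tested, Ccr2 and Lyz2 were higher in Cd+Se against Se (changes 1.31 and 0.82), and Ccr2 and Ly6c2 were higher in Cd against control (0.56 and 0.66). Dendritic cell markers summed to 3.32 to 9.66 TPM in Cd+Se and 4.83 to 7.42 TPM in Cd mice, against 3.04 to 3.98 TPM in control and 3.08 to 3.54 TPM in Se mice. For monocyte and dendritic cell markers alike, the lowest value in the Cd+Se group belonged to mouse 15, the mouse with the least class II RNA of that group. Of the 2 dendritic cell markers tested, Clec9a was higher in Cd against control (0.64) and 0 passed in Cd+Se against Se. Of the 6 below the filter, Itgax (1.31 and 0.19 TPM), Siglech (0.395 and 0.107 TPM) and Ccr7 (0.507 and 0.095 TPM) were higher in Cd+Se than in Se mice with no overlap (exact permutation, two-sided, p = 0.0286 each). The other 3, Flt3, Cd209a and Xcr1, overlapped between these groups (exact permutation p = 0.257, 0.0857 and 0.886). Xcr1 had the lower mean in Cd+Se mice (0.0525 and 0.0575 TPM). Itgax, Siglech and Ccr7 were also higher in Cd than in control mice with no overlap, by ratios of 4.33, 2.25 and 2.64 (exact permutation, two-sided, p = 0.0286 each). Flt3, Cd209a and Xcr1 overlapped there as well. The share of all genes without overlap is not given here.

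B cell markers summed to 7.88 TPM in Cd+Se mouse 15 and to 30.5 to 42.5 TPM in the other 3 Cd+Se mice. They summed to a mean of 27.5 TPM in control mice, 28.1 to 46.3 TPM in Cd and 21.9 to 37.5 TPM in Se mice. Igkc made up most of the group means, at 20.2 TPM in control, 28.5 in Cd, 16.9 in Cd+Se and 24.8 in Se mice. With limma 0 of the 2 B cell markers tested passed in any comparison, and 1 had an unadjusted p under 0.05 in each of Cd+Se against Cd, Cd+Se against Se and the interaction. Of all 11766 genes tested, 3891, 1286 and 2505 had such a p in these comparisons. Sinusoidal endothelial cell markers summed to 79.6 TPM in mouse 15 and 132.3 to 138.2 TPM in the other 3 Cd+Se mice, and to 81.4 to 117.8 TPM in the other groups. Of the 7 tested, Lyve1 was higher in Cd+Se against Se (1.68, limma adjusted p = 0.00278) and in Cd+Se against Cd (1.09, limma adjusted p = 0.0138), and its interaction passed (1.62, limma adjusted p = 0.0434). In Cd against control Stab1 was higher (1.13) and Stab2 (-0.62) and Kdr (-0.90) were lower. T and NK cell markers, with 0 of 8 tested, summed to 1.14 to 5.28 TPM over all mice. Hepatocyte markers, of which 5 of 6 were in the table, had a summed mean of 75423 TPM in control, 56828.5 TPM in Cd, 66795 TPM in Cd+Se and 79983 TPM in Se mice. Alb alone had 52072.6 TPM in control and 33211.8 TPM in Cd mice (limma adjusted p = 0.056). In Cd against control 3 of the 5 had negative changes, and 2, Ttr and Apoa1, had positive ones. Only Serpina1c passed there (-0.37, limma adjusted p = 0.028). No marker in these lists was at 0 in all 4 mice of a group. The part of these cell types in the class II and class I levels was not tested.

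**Figure D5:**
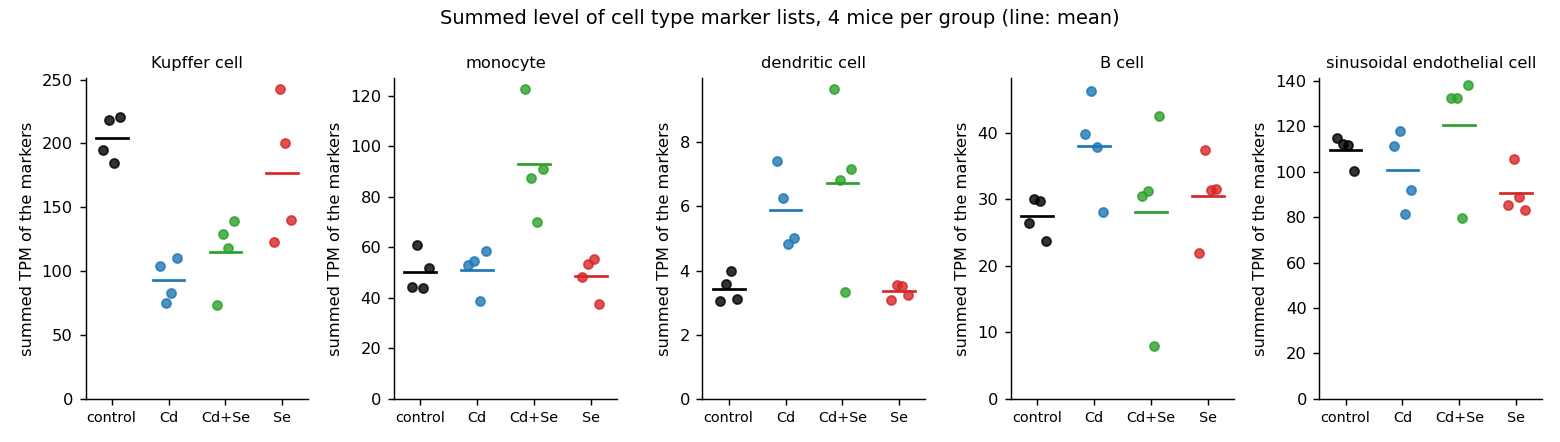
Summed TPM of the marker lists of 5 cell types in each mouse (y axes, linear, from 0) by group (x axes), with 4 points per group and a line at the mean. Kupffer cell markers are low in Cd and Cd+Se mice, and monocyte markers are highest in Cd+Se mice. In every panel but that of Kupffer cell markers, 1 Cd+Se mouse, mouse 15, is lowest of its group.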

How the data were processed

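Poly(A) RNA from the livers of 16 mice was sequenced (NovaSeq), and the authors deposited TPM values for 57010 genes with 1 column per mouse. The submitters' processing notes name fastp, HISAT2 and StringTie without versions and the genome build GRCh38, a human build, whereas all identifiers are mouse Ensembl genes, so the mouse annotation is not given in the sources used here. Sample titles name a pair of runs per mouse, and how these were combined is not stated. Groups were taken from the treatment label of each sample, and columns were matched to samples by title. TPM carry no depth, so precision rests on the 4 mice per group.

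Values were compared as log2(TPM + 1) with limma 3.58.1 (R 4.3.3), with 16 libraries in 1 model, an intensity trend and Benjamini-Hochberg adjustment over the 11766 genes whose mean reached 1 TPM (threshold 0.05). A change on this scale understates that of low genes. Ciita, below the filter, was compared by exact permutation over 70 arrangements, two-sided. The members and gene lists were chosen with earlier results of these data known. Named pathway genes were, in each of Cd against control and Cd+Se against Cd, up to 6 genes with the largest changes that passed, plus Irf1 and Rfx5 whatever their values. Of the genes this rule names, 1 is counted but not reported here. For each class, the 3 tested genes that correlated best with its mean were also named. Alternatives were a pseudocount of 0.1, no filter or a mean of at least 5 TPM, quantile normalization, centring on the library median, only the groups compared, no trend, a log2 change of at least 1, each mouse left out and, chosen after seeing the data, a loess correction for transcript length and GC content (11561 genes). Steps were tested on simulated data. Positions were looked up by Ensembl identifier in GENCODE M21 (GRCm38), and promoter windows from RefSeq (GRCm38.p6).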

Additional observations from a re-analysis of the deposited data

Results flagged for a closer look

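In 5 of the 84 groups of 4 mice looked at, 1 mouse lay apart from the other 3 by Dixon's ratio (the gap to the nearest mouse over the range of the group), where chance gives 4.2. Tap1 in Cd+Se mouse 15, at 3.91 TPM against 6.92 to 7.54 TPM, had a ratio of 0.8292 and was the only member among them. The others were Jak1 in Se mouse 40 (ratio 0.8912, 28.4 TPM against 24.01 to 24.5 TPM), Erap1 in Cd+Se mouse 16 (ratio 0.8732, 19.8 TPM against 23.97 to 24.6 TPM), H2-Q10 in Se mouse 40 (ratio 0.8478, 1223 TPM against 929 to 974 TPM) and Rfx5 in control mouse 29 (ratio 0.8529, 3.68 TPM against 4.26 to 4.36 TPM).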

How the results depend on the processing

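Of 1866 values of 81 results recomputed under the alternatives, 1673 kept their direction and their side of the threshold, 128 lost a call, 36 gained one and 29 turned direction; unless a setting removes genes or mice, the cause was not tested. The members called in Cd against control were 2, but 1 without a filter, 1 after quantile normalization, 5 after centring, 0 with a log2 change of at least 1, and 1 to 4 with each mouse left out (4 without Cd mouse 6, and 1 without control mouse 28 or Cd mouse 2). In Cd+Se against Cd they were 1, but 0 without a filter, 2 after centring, 0 with only the groups compared, 3 after the length and GC correction, 0 with a log2 change of at least 1, and 0 to 3 with each mouse left out (0 without Cd mouse 2 or 5 or Cd+Se mouse 14 or 16, 2 without Cd mouse 6 and 3 without Cd+Se mouse 15). For Cd+Se against Se they were 4, but 1 without a filter, 2 with a mean of at least 5 TPM, 0 with only the groups compared, and 0 to 4 with each mouse left out. Those in Cd+Se against control were 0 to 1 with each mouse left out, and for the interaction 1 after centring and 0 to 2 with each mouse left out. In Cd against control, the 1 member called after quantile normalization was Nlrc5, with H2-K1 and B2m lost. Nlrc5 also passed beside H2-K1 and B2m after the length and GC correction. In Cd+Se against Se, only H2-Aa was lost after quantile normalization, centring or the length and GC correction. Only Cd74 was lost there without a trend. Pathway genes called in Cd against control were 13 after centring and 0 with a log2 change of at least 1. Those called in Cd+Se against Cd were 2 without a filter, 8 after centring, 0 with only the groups compared, 0 with a log2 change of at least 1 and 2 to 7 with each mouse left out.

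Changes that turned direction were small in the main values. For Cd against control they were Cd74 (0.01 after quantile normalization, 0.10 after centring) and Ciita (0.198 after centring, and -0.074 to 0.009 with each mouse left out). After quantile normalization H2-K1 was at -0.01 in Cd+Se against control, and after centring B2m was at 0.00 there. H2-D1 in Cd+Se against Cd was at -0.15 with centring and -0.06 once length and GC were corrected for, and its interaction was -0.02 after centring. Rfx5 in Cd+Se against Cd was at -0.01 after the length and GC correction. With each mouse left out, H2-Ab1 in Cd against control ranged from -0.03 to 0.20, H2-K1 in Se against control from -0.08 to 0.03, H2-D1 in Cd+Se against Cd from -0.02 to 0.09, B2m in Cd+Se against control from -0.09 to 0.01 and in Se against control from -0.03 to 0.11, Tap1 in Cd+Se against control from -0.07 to 0.20 and in Cd+Se against Se from -0.18 to 0.08, and Irf1 in Cd+Se against Cd from -0.21 to 0.09. Genes called over the whole table in Cd+Se against Cd were 1876, and 66 with only these groups compared. Depth is unknown, and 4 mice per group limit each comparison.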
